A study of Mus musculus with 8 samples.

Results

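The promoters of the cytosolic ribosomal protein genes were examined in CUT&Tag peak lists of mouse embryonic fibroblasts (MEFs) at day 5 of reprogramming. Members were the protein-coding genes of the mm10 GENCODE annotation whose names begin with Rpl or Rps and a digit, with Rplp0, Rplp1, Rplp2 and Rpsa added and the Rps6k kinases and pseudogene names left out. This gave 86 of 21951 protein-coding genes, on 19 chromosomes. Of these, 77 encode core proteins of the ribosome (46 of the large subunit and 31 of the small subunit). The other 9 were the paralogues Rpl3l, Rpl7l1, Rpl10l, Rpl22l1, Rpl36al, Rpl39l, Rps27l and Rps27rt, and Rps19bp1, a protein that binds RPS19 and matches the rule by its name alone. All cells received Oct4, together with FLAG-tagged wild-type Nanog (NanogWT, labelled Nanog+Oct4) or with NanogBiD (labelled NanogN70+Oct4), in which the BRG1-interacting domain of SS18 is fused to the N-terminus of NANOG. The labels do not spell out NanogN70, and the study's description of its fusion was used to read it as NanogBiD. FLAG, BRG1, H3K27ac and H3K4me1 were each profiled, which gave 8 libraries, 1 for each of 4 targets in 2 arms. The authors merged replicates before peaks were called, so each group is a single list, no difference between the arms could be set against the spread between cultures, and no test was made.

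Ribosomal protein genes are among the most strongly transcribed genes of growing cells, and their protein products are made in equal amounts to build the small and large ribosomal subunits. Their promoters are short and rich in CpG, and transcription starts at a cytosine within a pyrimidine tract that also makes the mRNAs responsive to mTOR signalling. H3K27ac marks active promoters and enhancers, H3K4me1 marks enhancers and the flanks of promoters, BRG1 is the motor subunit of BAF, a complex that moves nucleosomes, and NANOG is a homeodomain factor of pluripotent cells.

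The stretches below, from the GRCm38.p6 (mm10) reference, run from 90 bases before the start of the principal transcript, on the sense strand. They were chosen to show promoters with the highest NANOG or BRG1 summits (Rps19, Rps29, Rpl37, Rplp1), the largest FLAG ratio between the arms (Rplp0) and a FLAG summit in NanogWT only (Rps27). Rpl39 is shown beside 2 paralogues with no summit in any list (Rpl39l and the muscle gene Rpl3l). Capitals mark the motifs named after the sequences and the pyrimidine tract at the start.
Rps19: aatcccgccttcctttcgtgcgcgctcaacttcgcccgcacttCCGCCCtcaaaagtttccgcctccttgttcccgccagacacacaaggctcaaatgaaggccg
Rps29: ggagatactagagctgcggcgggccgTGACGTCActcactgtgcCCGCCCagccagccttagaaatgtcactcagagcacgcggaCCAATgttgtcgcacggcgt
Rpl37: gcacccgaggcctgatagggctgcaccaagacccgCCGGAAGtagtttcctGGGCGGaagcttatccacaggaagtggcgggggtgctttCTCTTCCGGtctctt
Rplp1: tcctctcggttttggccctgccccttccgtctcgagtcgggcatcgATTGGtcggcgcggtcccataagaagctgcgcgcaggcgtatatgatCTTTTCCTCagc
Rplp0: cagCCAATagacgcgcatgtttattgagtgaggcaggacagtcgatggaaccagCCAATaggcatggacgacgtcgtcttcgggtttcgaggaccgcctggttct
Rps27: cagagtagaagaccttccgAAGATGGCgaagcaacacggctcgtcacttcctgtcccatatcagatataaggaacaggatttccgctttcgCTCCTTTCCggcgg
Rpl39: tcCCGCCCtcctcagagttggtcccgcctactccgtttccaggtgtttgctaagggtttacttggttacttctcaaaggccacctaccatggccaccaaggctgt
Rpl39l: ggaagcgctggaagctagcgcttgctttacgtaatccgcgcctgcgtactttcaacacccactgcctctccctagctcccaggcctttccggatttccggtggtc
Rpl3l: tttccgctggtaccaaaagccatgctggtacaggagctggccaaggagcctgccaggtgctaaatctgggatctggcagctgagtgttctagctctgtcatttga
They lie in order as Rps19 at chr7:24884281-24884385 (plus strand), Rps29 at chr12:69159172-69159276 (minus strand), Rpl37 at chr15:5116555-5116659 (plus strand), Rplp1 at chr9:61914528-61914632 (minus strand), Rplp0 at chr5:115559377-115559481 (plus strand), Rps27 at chr3:90213637-90213741 (minus strand), Rpl39 at chrX:37085388-37085492 (minus strand), Rpl39l at chr16:10170138-10170242 (plus strand) and Rpl3l at chr17:24727730-24727834 (plus strand). The capitals at Rps29 are the cyclic AMP response element TGACGTCA, the SP motif GGGCGG read on the opposite strand and a CCAAT box. Rplp0 has a pair of CCAAT boxes, and Rps27 has the YY1 motif AAGATGGC ahead of a tract of 9 pyrimidines. Rps19 and Rpl39 each have 1 SP motif, and Rplp1 has a CCAAT box on the opposite strand. At Rpl37 the ETS motif CCGGAAG occurs on both strands, and its downstream copy overlaps the tract of 7 pyrimidines. Rpl39l and Rpl3l have none of the searched motifs in these stretches.

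Motif letters were searched on both strands from 250 bases before to 50 bases after the gene's 5′ end. The ETS motif was found at 23 of 86 members, 26.7%, against 10.8% of all protein-coding promoters and 18.3% of those with H3K27ac in both arms. From the principal transcript start the share of members was 33.7%. Other housekeeping lists were as high at the 5′ end, with 34.6% of mitochondrial ribosomal protein genes, 34% of proteasome genes, 36.7% of ribosome biogenesis genes and 26.5% of translation factors. The YY1 motif stood at 6.98% of members and 2.92% of all promoters (12.8% of mitochondrial ribosomal protein genes and 10% of proteasome genes), and the response element TGACGTCA at 5.81% and 2.43%. Pyrimidine tracts, a C followed by at least 4 pyrimidines that begins within 5 bases of the start, were present at 26.7% of members, 26.5% of translation factors and 19.0% of all promoters, or for members and all promoters 32.6% and 17.9% from the principal start. SP motifs were at 46.5% of members, against 43.0% of all promoters and 64.3% of all promoters with H3K27ac in both arms. CCAAT boxes (30.2% of members and 39.0% of all promoters), the TATA box TATAAA (10.5% and 12.6%, and 6.82% of promoters with H3K27ac in both arms), the E-box CACGTG (12.8% and 7.75%), the NRF1 motif GCATGCGC (3.49% and 3.71%) and the AP-1 motifs TGACTCA and TGAGTCA (3.49% and 4.59%, and 3.2% of those with H3K27ac) were also counted. Of letters read by reprogramming factors, the OCT octamer ATGCAAAT was at 0 of 86 members and 1.57% of all promoters. The homeodomain core TAATTG was at 3 members, 3.49%, against 7.85% of all promoters, and the SOX motifs ACAAAG or ACAATG at 24.4% against 26.3%. Among promoters with H3K27ac in both arms the octamer was at 1.3%, the homeodomain core at 4.83% and the SOX motifs at 19.1%. For the SP, SOX, TATA and AP-1 letters the direction thus depended on which promoters the members were set against. The median GC content of the members was 55.3%, against 55.0% for all promoters and 60.3% for those with H3K27ac in both arms. Their median ratio of observed to expected CpG was 0.815, against 0.524 and 0.766. Core members with the ETS motif at the 5′ end had a median FLAG summit of 17.5 tags in NanogWT (20 members) and 19 in NanogBiD (19), and those without it 16 (50) and 20 (52). From the principal start the medians were 18 and 21 with it and 15 and 19.5 without, so that the direction in NanogBiD turned. Core members with an SP motif at the 5′ end had median FLAG summits of 18 in NanogWT and 20 in NanogBiD, and those without 14 and 20. Their BRG1 medians were 21 and 20 with the motif and 16 and 16.5 without.

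A summit is the base of a peak with the highest pileup of sequencing tags, and its height is that number of tags, not scaled to depth. Each gene was searched from 2 kb before to 2 kb after its 5′ end, and the highest summit was taken. FLAG-tagged NANOG had a summit at 75 of 86 members in NanogWT and 75 in NanogBiD. That is 87.2% (Wilson 95% interval 78.5 to 92.7) in each arm, against 48.8% and 49.8% of all protein-coding promoters. BRG1 also had summits at 75 members in each arm, where all promoters stood at 48.7% and 49.2%. H3K27ac had summits at 80 members in NanogWT (93.0%, 85.6 to 96.8) and 79 in NanogBiD (91.9%, 84.1 to 96), against 51.8% and 54.4% of all promoters. H3K4me1 was the exception, with summits at 41 members (47.7%, 37.4 to 58.1) in NanogWT and 48 (55.8%, 45.3 to 65.8) in NanogBiD, beside 55.0% and 55.1% of all promoters. These intervals cover counting error only. High shares of FLAG, BRG1 and H3K27ac were not particular to the members. Over both arms, the mitochondrial ribosomal, proteasome, translation factor and ribosome biogenesis lists had FLAG at 78% to 96.7% of their genes. BRG1 was at 82% to 96.7% of them and H3K27ac at 86% to 100%.

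**Figure D1:**
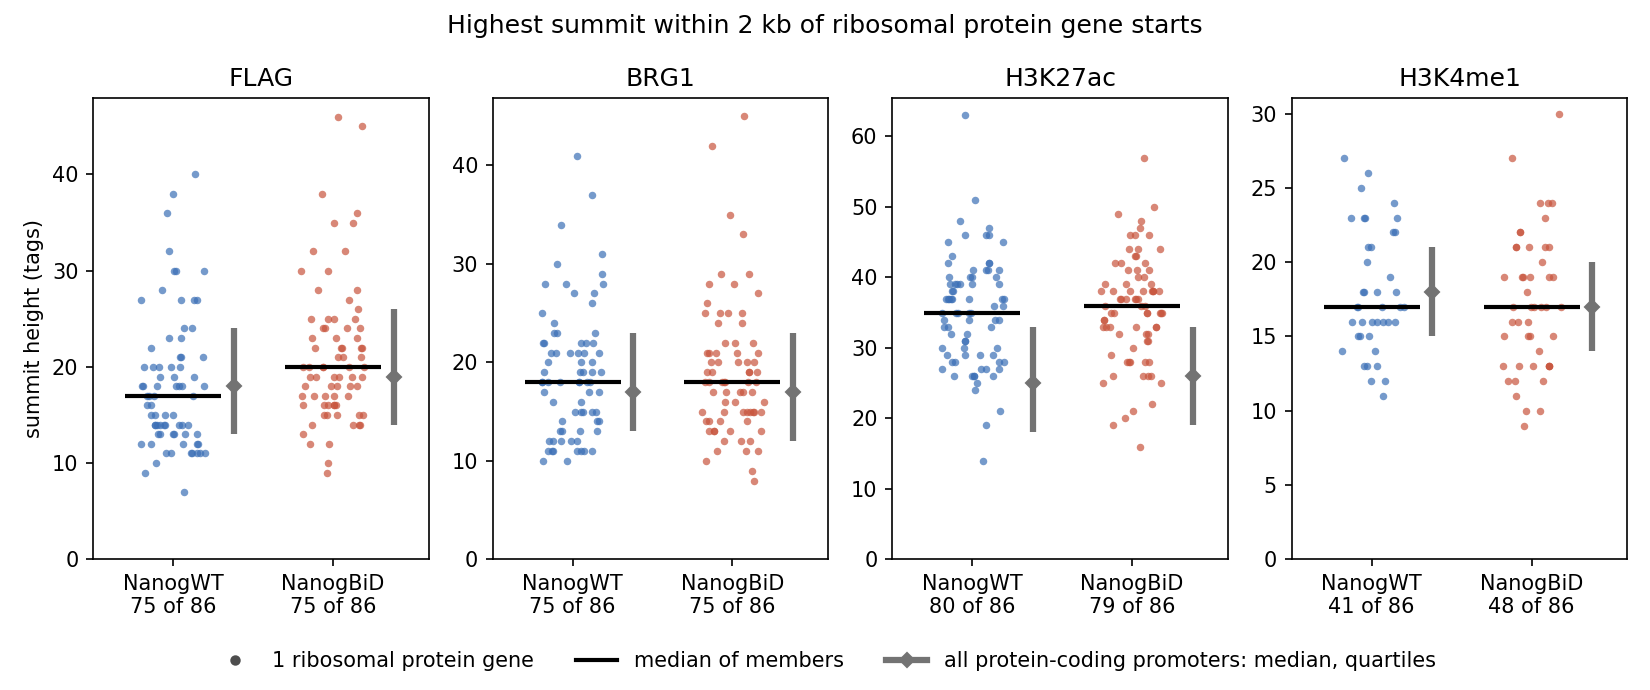
Height in tags of the highest summit within 2 kb of each ribosomal protein gene's start, by target and arm, with the number of members that had one of 86; each point is 1 gene, black bars are medians, and grey marks give the median and quartiles of all protein-coding promoters. The H3K27ac points lie mostly above the grey median (members 35 and 36 tags, all promoters 25 and 26), while the other targets overlap it.

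Among the 4 targets, the medians of members and all promoters were farthest apart for H3K27ac. The median H3K27ac summit was 35 tags in NanogWT and 36 in NanogBiD, against 25 and 26 over all promoters with a summit. These medians lay at percentile 93 and 94.4 of all H3K27ac summits of their lists, promoters and other regions together. H3K27ac peaks at members were also longer, with a median of 2340 bases in NanogWT and 2530 in NanogBiD against 1742 and 1812 at all promoters. FLAG summits had a median of 17 tags in NanogWT and 20 in NanogBiD, beside 18 and 19 over all promoters. BRG1 summits had a median of 18 in both arms, beside 17. Translation factor genes (Eif and Eef names) had median FLAG summits of 18.5 and 23 tags and median H3K27ac summits of 29 and 31. Mitochondrial ribosomal protein genes, whose products build the ribosome of that organelle, had 25 and 26.5 tags of H3K27ac.

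Large and small subunit genes were occupied in like shares. Of the 46 core large subunit genes, 42 and 43 had a FLAG summit in NanogWT and NanogBiD, and of the 31 core small subunit genes 28 and 28. Their median H3K27ac summits in NanogWT were 36 and 35 tags. Median FLAG summits in NanogWT were 18 tags at large subunit and 15 at small subunit genes, and 20 at both in NanogBiD. Of those with FLAG in both arms, 65.9% of 41 large subunit and 80.8% of 26 small subunit genes were higher in NanogBiD, against 57.1% of all promoters. By at least 1.5-fold 17.1% and 30.8% were higher, against 10% of all promoters, and 0 of 41 and 2 of 26 (7.69%) were lower, against 3.68%. The 30 core genes that carry snoRNA genes in their introns, which hold 58 snoRNA genes in all, had a median H3K27ac summit of 36 in NanogWT, and the 47 core genes that carry none had 35. In NanogWT the hosts had a median FLAG summit of 18 tags and a median BRG1 summit of 19.5, and the others 14 and 16. In NanogBiD the medians were 21 and 19 at hosts and 19 and 17 at the others.

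**Figure D2:**
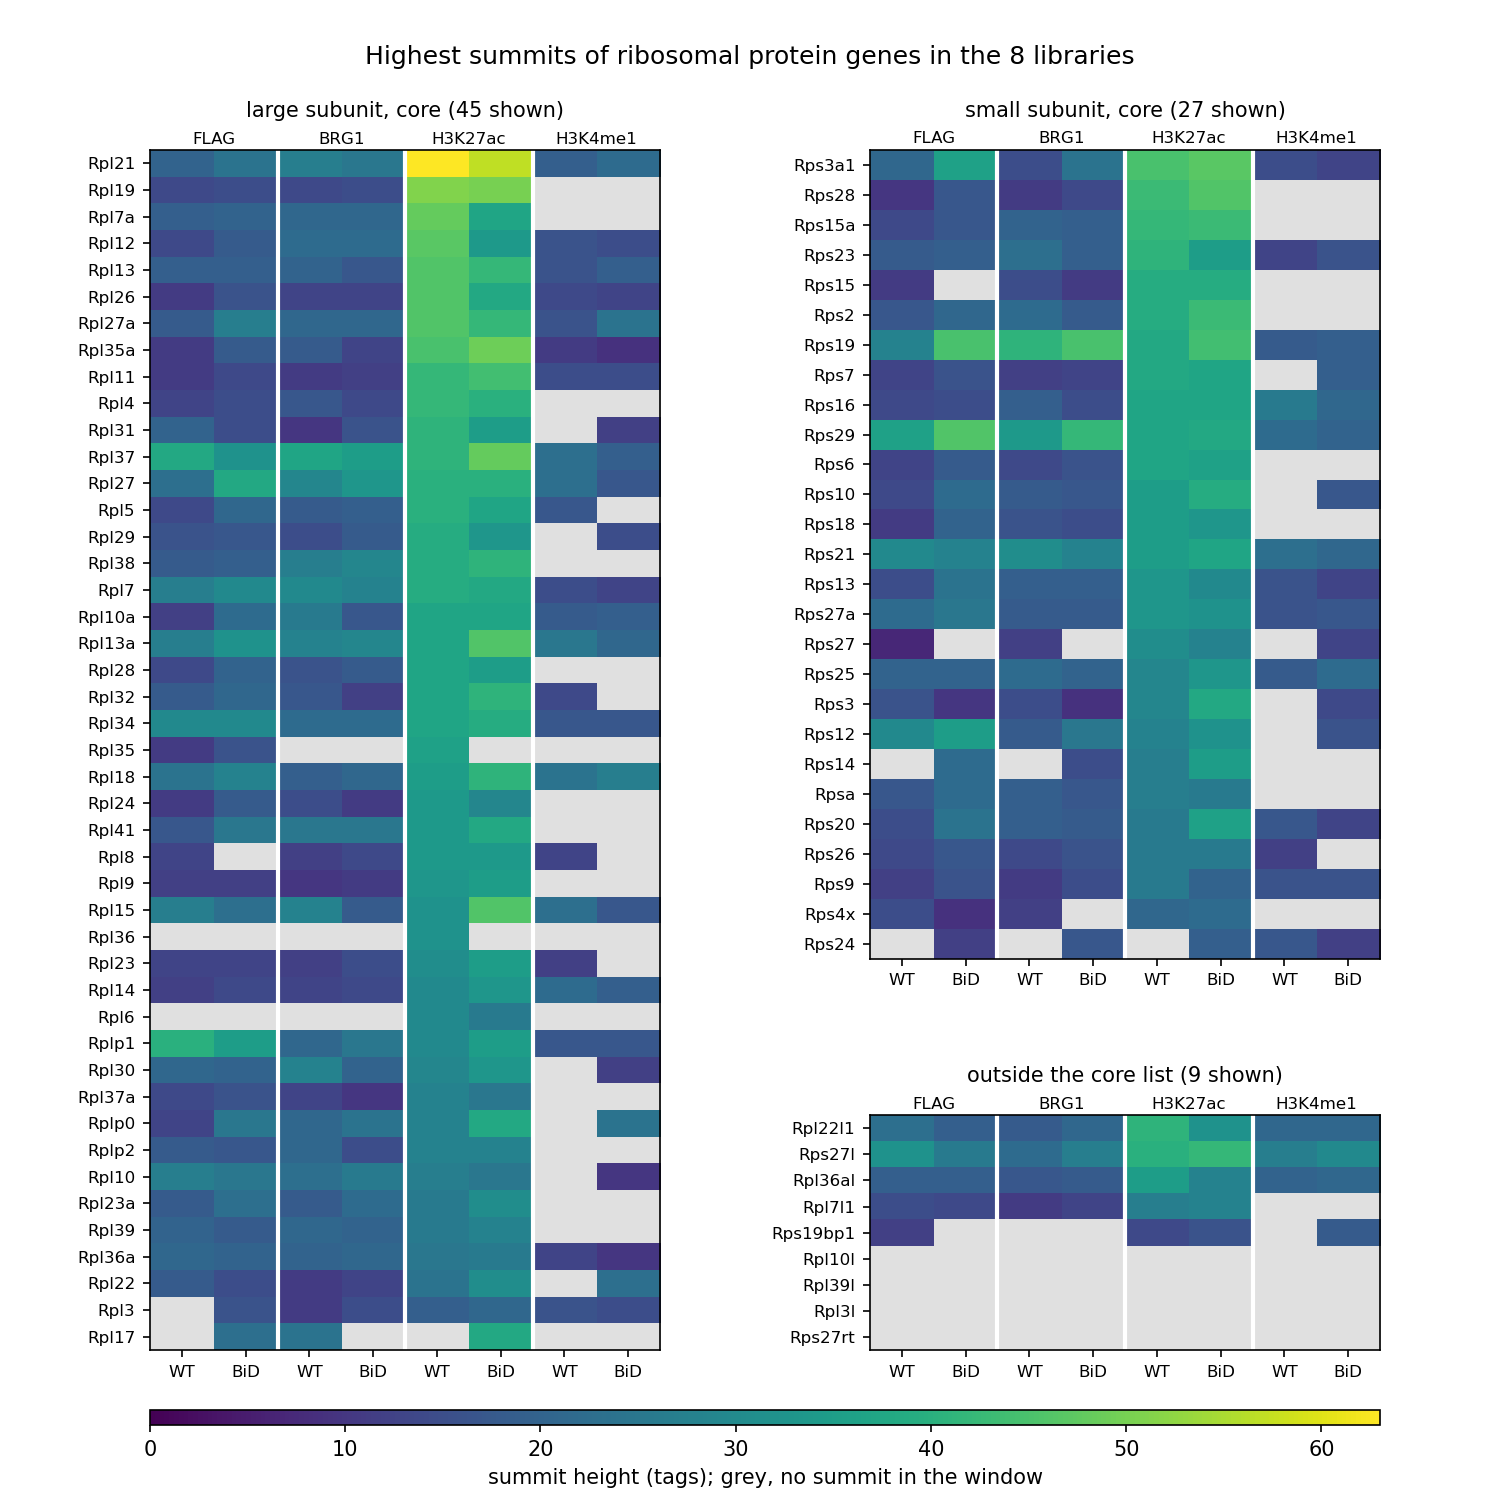
Height in tags (colour) of the highest summit of the members shown in the 8 libraries, with genes in rows, ordered by H3K27ac height in NanogWT within each group, and grey where the window held no summit. H3K27ac was present at nearly every core gene, most grey cells of the core genes are in the H3K4me1 columns, and 4 of the 9 genes outside the core list are grey throughout.

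The 3 highest FLAG summits of NanogWT were at Rplp1, Rpl37 and Rps29, and those of NanogBiD at Rps29, Rps19 and Rpl27. Rps29, a small subunit protein that binds zinc, had FLAG summits of 36 tags in NanogWT and 46 in NanogBiD and BRG1 summits of 34 and 42. Rps19, the small subunit gene most often mutated in Diamond-Blackfan anaemia, had 28 and 45 for FLAG and the highest BRG1 summits of the members, 41 and 45. Rpl37 had 38 and 32 for FLAG and 37 and 35 for BRG1. Both targets were high at these 3 promoters, and at Rps29 the FLAG summits of both arms lay 69 bases upstream of the 5′ end. Rplp1, an acidic protein of the stalk that recruits elongation factors, had the highest FLAG summit in NanogWT, 40 tags, and 35 in NanogBiD, but BRG1 summits of 21 and 25. Its fellow stalk genes were lower, Rplp2 with FLAG summits of 18 and 17 and Rplp0 with 13 and 25.

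Across members, FLAG and BRG1 heights had a Spearman correlation of 0.660 (72 members) in NanogWT and 0.809 (72) in NanogBiD. Over all promoters it was 0.743 and 0.850. Correlations of H3K27ac height with these targets were lower at the members than over all promoters. Its correlation with BRG1 height was 0.163 (74 members) in NanogWT and 0.188 (74) in NanogBiD, where all promoters gave 0.652 and 0.661. With FLAG height it was 0.013 (75) and 0.307 (73), against 0.542 and 0.618. Members vary less in H3K27ac than all promoters do, all values of a library share its depth, and these coefficients are descriptions across genes, which are not replicates. Rpl21, a large subunit gene with the highest H3K27ac summits of the members, 63 tags in NanogWT and 57 in NanogBiD, had FLAG summits of 20 and 24. Rpl19 came next, with 51 and 50 tags of H3K27ac and FLAG summits of 14 and 15. At Rpl35a, where H3K27ac reached 45 and 49, FLAG was 11 and 18.

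The scarcity of H3K4me1 at the members was compared with promoters of like H3K27ac. Among promoters with an H3K27ac summit in both arms, 77 members and 11035 genes in all, H3K4me1 had a summit at 40 members (51.9%, 41.0 to 62.7) in NanogWT and 47 (61.0%, 49.9 to 71.2) in NanogBiD. The shares over all such promoters were 84.4% and 86.0%. FLAG in contrast was at 94.8% and 92.2% of these members and at 89.0% and 89.1% of all. Over their whole lists, mitochondrial ribosomal protein genes had H3K4me1 at 80.8% and 82.1%, proteasome genes at 72.0% and 76.0%, translation factors at 67.6% and 73.5%, and ribosome biogenesis genes at 80% and 83.3%, against 47.7% and 55.8% of the 86 members.

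**Figure D3:**
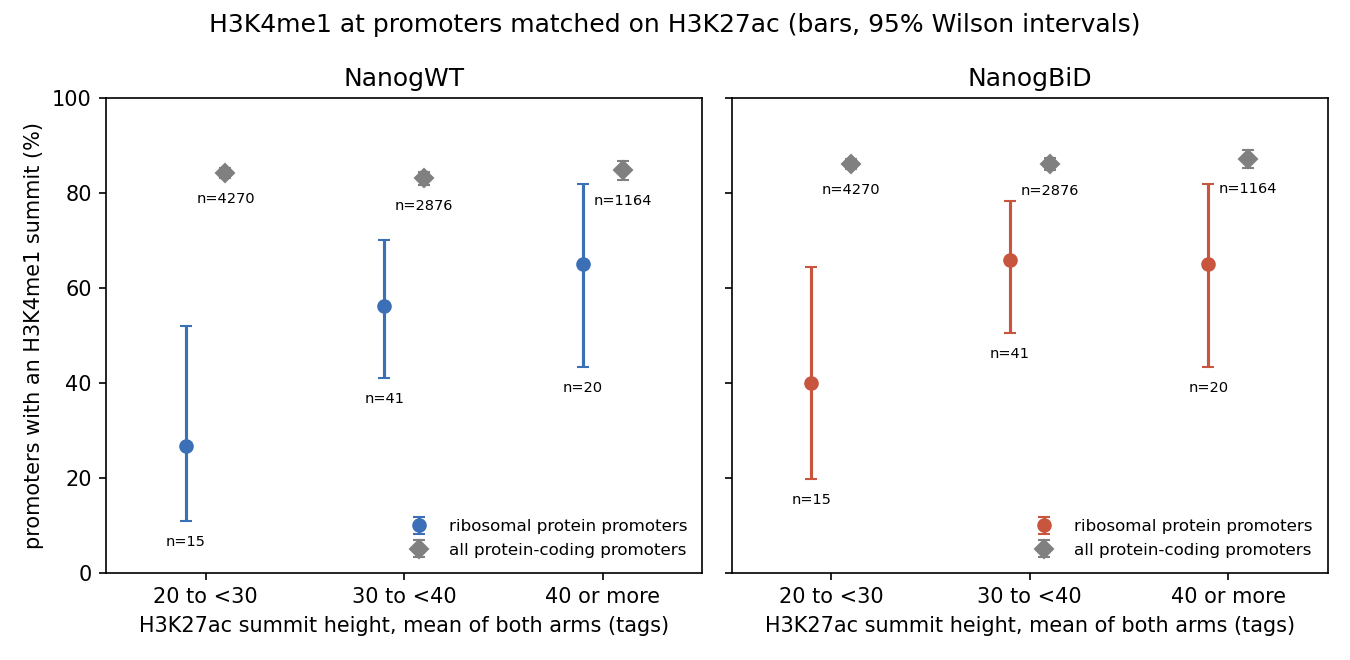
Share of promoters with an H3K4me1 summit (percent, with 95% Wilson intervals) in classes of H3K27ac height (mean of both arms, in tags), for ribosomal protein promoters (circles) and all protein-coding promoters (diamonds), by arm. Members lie below all promoters in the 3 classes drawn for each arm, 26.7% against 84.3% at 20 to under 30 tags in NanogWT, and the intervals of members and all promoters do not meet.

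The gap was present in each of the 3 classes of H3K27ac height from 20 tags up, and only 1 member lay below 20. Where the mean H3K27ac height of the arms was 20 to under 30 tags, 4 of 15 members (26.7%) had H3K4me1 in NanogWT and 6 (40%) in NanogBiD, against 84.3% and 86.1% of all promoters in that class. From 30 to under 40 tags the members were at 56.1% and 65.9% of 41, against 83.1% and 86.1%. At 40 tags or more they were at 65.0% of 20 in both arms, against 84.9% and 87.2%. The members are part of the counts over all promoters.

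Of all 21951 promoters, 8671 had no H3K4me1 summit in the window in either arm, and altogether 32 of the 86 members had none. Of these, 20 carried FLAG, BRG1 and H3K27ac in both arms, among them Rpl37a, Rpl41, Rpl23a, Rpl19, Rpl38, Rpl24, Rps2, Rps28, Rps18, Rpl7l1, Rpl7a, Rps6, Rpl9, Rpl28, Rps15a, Rplp2, Rpl4, Rpsa and Rpl39. They were 23.3% of the members, and the same class held 2.49% of all promoters. The class requires H3K27ac in both arms, and on that base it held 20 of 77 members and 547 of 11035 promoters. Rpl38, which is needed for translation of Hox mRNAs in the mouse embryo, was one of the 20 members. It had H3K27ac summits of 39 and 41 tags and FLAG summits of 18 and 19. Rps6, the substrate of the S6 kinases, had H3K27ac summits of 37 and 36, and Rpl24, the gene of the Belly spot and tail mouse, had 34 and 29. At Rpl41 an H3K4me1 peak of NanogBiD overlapped the window with its summit outside. Rpsa, which also serves as a laminin receptor, had 27 and 26. The nearest H3K4me1 summit to the 24 such members with H3K27ac in both arms lay at a median of 6.49 kb in NanogWT and 7.08 kb in NanogBiD. For the 914 promoters in that state with a measured nearest summit, of 917, the medians were 7.52 and 9.91 kb. All 4 targets in both arms were found at 33 members (38.4%) and at 32.9% of all promoters.

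Where H3K4me1 was present, its median was 17 tags in both arms, beside 18 and 17 over all promoters and 19 and 17 over those with H3K27ac in both arms. The members' median lay at percentile 67.4 of the NanogWT list, against 74.2 for all promoters, and at 78.3 for both in NanogBiD. The highest were at Rps27l, a p53-inducible paralogue of Rps27, with 27 tags in NanogWT and 30 in NanogBiD. Next in NanogWT came Rps16 with 26 (21 in NanogBiD) and Rpl13a with 25 (21), and next in NanogBiD came Rpl18 with 27 (24 in NanogWT), then 3 members with 24 each, among them Rpl27a and Rplp0. The principal start of Rpl18 lies 2614 bases downstream of its 5′ end, and from there it had 17 tags in NanogWT and no H3K4me1 summit in NanogBiD.

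**Figure D4:**
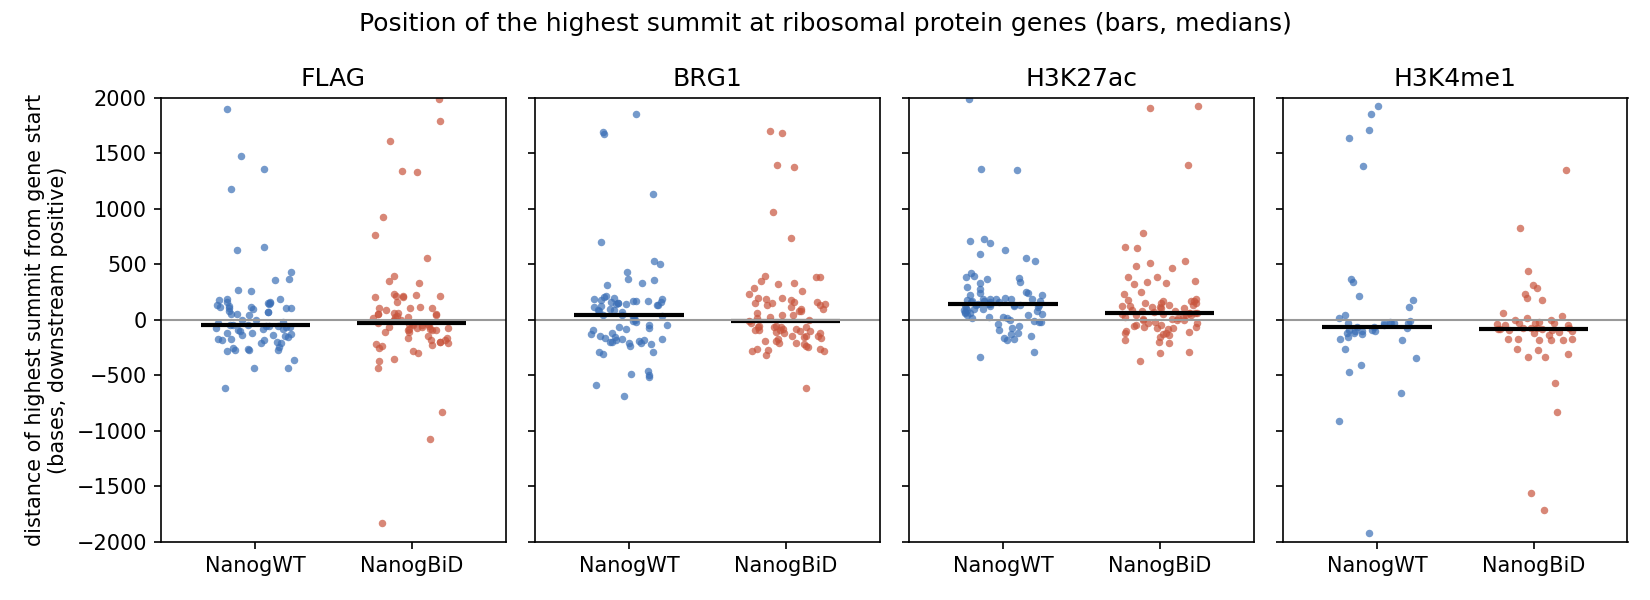
Signed distance in bases of the highest summit from the gene's 5′ end (downstream positive) at each member, by target and arm, with bars at the medians. FLAG and BRG1 medians lie within 43 bases of the start, H3K27ac medians downstream (139.5 and 67) and H3K4me1 medians upstream (-64 and -77).

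FLAG and BRG1 summits of members lay close together at the start, with H3K27ac mostly downstream and H3K4me1 mostly upstream. Of the FLAG summits at members, 73.3% lay within 250 bases of the 5′ end in each arm, against 64.7% and 63.7% over all promoters, and BRG1 gave 72.0% in each arm against 64.9% and 63.5%. The mitochondrial ribosomal, proteasome, translation factor and ribosome biogenesis lists were like the members, with 70.4% to 79.5% for FLAG and 71.4% to 82.8% for BRG1. H3K27ac summits lay downstream at most members, with 20% upstream in NanogWT and 31.6% in NanogBiD, where all promoters had 35.7% and 38.9%. In NanogWT 48 of the 80 were in an exon and 15 in an intron of the gene. H3K4me1 summits lay upstream at 70.7% and 75% of the members that had one, against 50.5% and 50.8% over all promoters. Translation factors (78.3% and 72.0%) and ribosome biogenesis genes (75% and 72.0%) gave like shares. Mitochondrial ribosomal protein genes (47.6% and 46.9%) and proteasome genes (47.2% and 52.6%) were nearer to all promoters. The H3K4me1 summit stood at a median of 139.0 bases from the FLAG summit in NanogWT (39 members) and 79 in NanogBiD (45), while over all promoters the medians were 128.0 and 121.0. FLAG and BRG1 summits were a median of 83.5 and 77.5 bases apart at members and 91 and 82 over all promoters. The annotation names 294 pseudogenes after ribosomal protein genes, 60 members have at least 1, and the authors removed poorly mapped reads, so tags in exons that resemble such copies may be missing; its part in these positions was not tested.

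The arms were then compared at members with a summit in both. For FLAG, 48 of 71 members were higher in NanogBiD and 16 lower (67.6% and 22.5%), where all promoters had 57.1% higher and 34.7% lower. The median log2 ratio of NanogBiD over NanogWT was 0.22 (quartiles 0.00 and 0.53) at members, 0.10 over all promoters and 0.26 at translation factor genes. At least 1.5-fold higher were 15 of the 71 (21.1%), against 10% of all promoters, and 2 were lower by that fold (2.82%), against 3.68%. After division by the median ratio of all promoters, 9 members were higher and 2 lower by that fold, beside 567 and 586 of 9841 promoters. The median log2 ratio was 0.19 with a score of at least 100, against 0.10 over all promoters, and 0.00 among the 20000 highest-scoring peaks of each list, against 0.10. Peak scores in place of heights gave 0.0584 at members, against 0.006 over all promoters. With summits of at least 15 tags the median log2 height ratio was 0.08 at members and over all promoters. Each stricter list leaves out members that stay in it in a single arm only, so none of its values speaks for the full set. At 15 tags these were 24 in NanogBiD only and 3 in NanogWT only, and at a score of 100 they were 10 and 4. Among the 20000 highest-scoring peaks they were 7 and 7. For none of the 71 did the counting interval of the ratio leave out the median ratio of all promoters, which 1.25% of all promoters did.

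**Figure D5:**
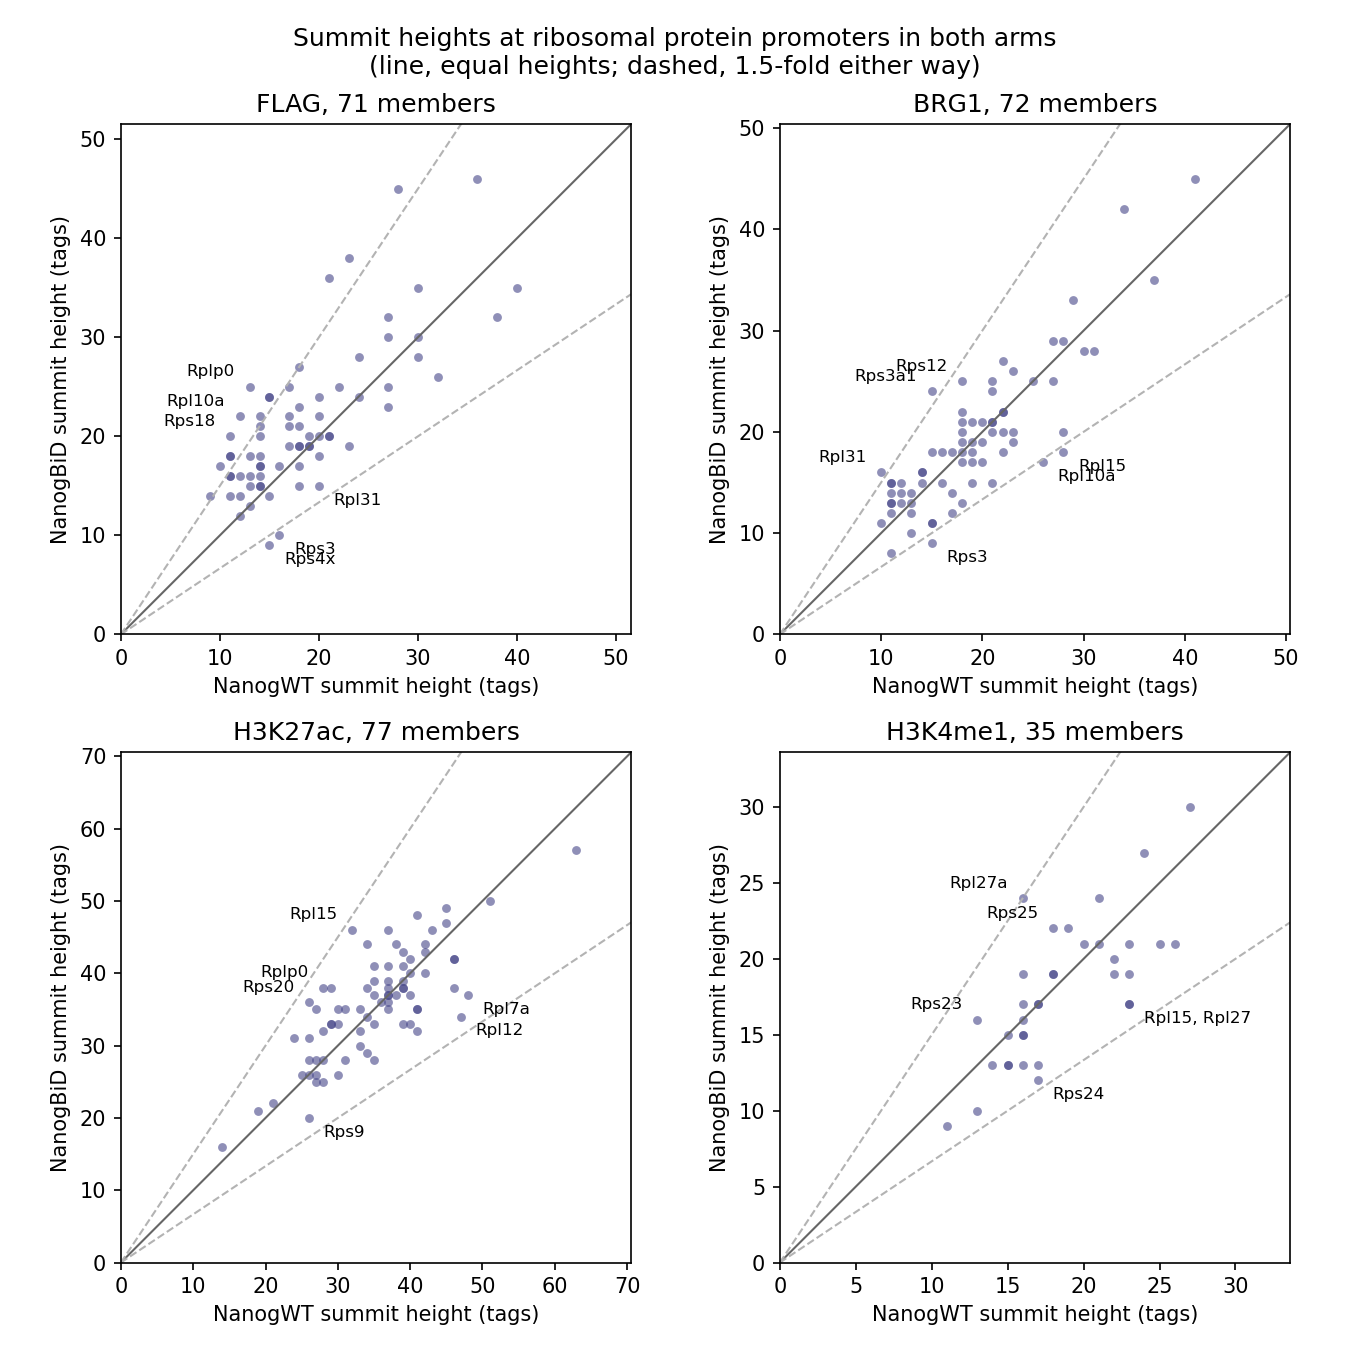
Summit heights in tags in NanogWT (x axis) and NanogBiD (y axis) at members with a summit in both arms, by target; each point is 1 gene, the line marks equal heights, dashed lines mark 1.5-fold, and the 3 largest and 3 smallest ratios are named. For FLAG 48 of 71 points lie above the line and for BRG1 35 of 72, and for H3K27ac no point lies beyond 1.5-fold.

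The largest FLAG ratios were at Rplp0, the base of the ribosomal stalk, with 13 tags in NanogWT and 25 in NanogBiD (ratio 1.92, exact 95% counting interval 0.947 to 4.09), at Rpl10a with 12 and 22 (1.83, 0.869 to 4.06) and at Rps18 with 11 and 20 (1.82, 0.83 to 4.2). These 3 intervals include 1. The smallest were at Rps4x, the X-linked copy of Rps4, with 15 and 9 (0.6), at Rps3, which lines the mRNA entry channel and also acts in DNA repair, with 16 and 10 (0.625), and at Rpl31 with 20 and 15 (0.75). Among high promoters, Rps19 had 28 and 45 tags and Rpl27 had 23 and 38, while Rplp1 and Rpl37 had fewer in NanogBiD.

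BRG1 heights gave a median ratio of no change. Of 72 members, 35 were higher in NanogBiD and 29 lower (48.6% and 40.3%), where all promoters had 41.4% higher and 47.5% lower, and the median log2 ratio was 0.00 at members and over all promoters. At least 1.5-fold higher were 2 (2.78%), against 4.54% of all promoters, and lower 3 (4.17%), against 5.34%. No counting interval at the members left out the median of all promoters, against 0.396% of all promoters. BRG1 was highest in NanogBiD relative to NanogWT at Rps3a1 with 15 and 24 tags, Rpl31 with 10 and 16, and Rps12 with 18 and 25. It was lowest at Rps3 with 15 and 9, Rpl15 with 28 and 18, and Rpl10a with 26 and 17. At Rpl10a, BRG1 thus had fewer tags in NanogBiD where FLAG had more, at Rpl31 the reverse was seen, and at Rps3 both were lower. The FLAG and BRG1 log2 ratios had a Spearman correlation of 0.003 over 68 members and 0.106 over all promoters. Among the 20000 highest-scoring peaks, 70 members had a BRG1 summit in NanogWT and 45 in NanogBiD, where all promoters were at 42.2% and 31.7%. These peaks are a larger part of the NanogWT list (30859 peaks) than of the NanogBiD list (53748), and the part of this in the counts was not tested. With a score of at least 100 the counts were 56 and 57 (all promoters 37.7% and 38.7%), and with summits of at least 15 tags 54 and 57 (31.7% and 30.6%).

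H3K27ac was nearly the same in both arms at the members. Of 77, 39 were higher in NanogBiD, 30 lower and 8 equal (50.6% higher and 39.0% lower), where all promoters had 57.7% higher and 32.9% lower. The median log2 ratio was 0.03, beside 0.08 over all promoters. No member differed by 1.5-fold in either direction, where 5.0% of all promoters were higher and 0.807% lower by that fold. No counting interval left out the median ratio, against 0.181% of all promoters. The extremes upward were Rpl15 with 32 and 46 tags, Rps20 with 26 and 36 and Rplp0 with 28 and 38. Downward they were Rpl12 with 47 and 34, Rps9 with 26 and 20 and Rpl7a with 48 and 37. Rpl15, a large subunit gene that shares its window with Nkiras1, thus had more H3K27ac and fewer BRG1 tags in NanogBiD.

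H3K4me1 had summits in both arms at 35 members, with 12 higher and 18 lower in NanogBiD (34.3% and 51.4%), where all promoters had 28.9% higher and 60.7% lower. The median log2 ratio was -0.09, beside -0.11 over all promoters. The members' median changed sign under some of the alternatives given at the end. Rpl27a, with 16 and 24 tags, was the 1 member at least 1.5-fold higher (2.86%), against 0.963% of all promoters, and none was lower by that fold, against 6.41%. Rps23 with 13 and 16 and Rps25 with 18 and 22 followed upward. The lowest ratios were at Rps24 with 17 and 12, Rpl15 with 23 and 17 and Rpl27 with 23 and 17. From the principal start, Rps24 had 17 tags in NanogWT and no H3K4me1 summit in NanogBiD. Again no counting interval left out the median ratio, against 0.0642% of all promoters.

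In the full lists, presence in a single arm was most frequent for H3K4me1, which did not hold in the stricter lists given below. Summits in NanogBiD only were at 13 members, 15.1%, against 5.46% of all promoters, and summits in NanogWT only at 6, 6.98%, against 5.35%. Among the 13 were Rplp0, Rpl22, Rps7, Rps10, Rps12, Rpl29, Rps3, Rps27, Rpl30, Rpl31, Rpl10 and Rps19bp1. Rplp0 had 24 tags of H3K4me1 in NanogBiD and no summit in NanogWT, Rpl22, an RNA-binding large subunit protein, had 23, and Rps7, which binds MDM2, had 19. In Rplp0 the H3K4me1 summit lay 76 bases upstream of the 5′ end, and the FLAG summit of the same arm 83 bases upstream. Among the 6 in NanogWT only were Rpl5 with 17 tags, Rpl32 with 14, Rpl8 with 13, and Rpl23 and Rps26 with 12 each. Rpl5 and Rpl11, which form a particle with the 5S rRNA, differed here, since Rpl11 had 15 tags in both arms. The lists were not of equal size, 72242 H3K4me1 peaks in NanogWT and 57156 in NanogBiD, so that the longer list was that of the arm with fewer members. Translation factor genes were close to the members here, with 9 of 68 (13.2%) in NanogBiD only and 7.35% in NanogWT only. Stricter lists brought the NanogBiD-only count nearer to the background. Among the 20000 highest-scoring peaks 10 members had H3K4me1 in NanogBiD only, where 10.3% of all promoters did, and 0 in NanogWT only, against 4.15%. With a score of at least 100 the counts were 5 and 4, against 5.79% and 7.87% of all promoters. With summits of at least 15 tags they were 8 and 7, against 5.61% and 10.7%.

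For FLAG, BRG1 and H3K27ac, the full lists gave few members with a summit in a single arm, and the counts moved with how strict the list was. With summits of at least 15 tags, 24 of 86 members had FLAG in NanogBiD only, against 6.69% of all promoters, and 3 in NanogWT only, against 3.68%. These bases are unlike, since in the full lists 10147 of 21951 promoters but 7 of 86 members had no FLAG summit in either arm. The lower quartile of the members' FLAG heights was 13 tags in NanogWT and 16 in NanogBiD, either side of that minimum. With a score of at least 100 the NanogBiD-only count was 10, against 4.71%. For BRG1, 26 members were in NanogWT only among the 20000 highest-scoring peaks, against 11.7% of all promoters. In the full lists, FLAG was in NanogBiD only at Rpl17, Rps14, Rpl3 and Rps24, 4 members (4.65%) against 4.94% of all promoters, and in NanogWT only at Rpl8, Rps19bp1, Rps15 and Rps27, 4 members against 4.0%. The NanogBiD-only genes depended on where the start was placed. In Rps24, Rpl3 and Rps14 the start of the principal transcript lies 3593, 8462 and 27498 bases downstream of the gene's 5′ end, and in Rpl17 1919 bases. At Rpl17 a NanogWT FLAG peak also overlapped the window with its summit outside. From the principal start all 4 had FLAG summits in both arms, with 23 tags in NanogWT and 22 in NanogBiD at Rps24, 23 and 26 at Rpl3, 19 and 29 at Rps14, and 14 and 23 at Rpl17. Rpl3, which lies by the peptidyl transferase centre, and Rps14, the 5q- syndrome gene, thus had FLAG summits at the principal start in both arms. The same 4 genes were in NanogWT only from either start, with 13 tags at Rpl8, 12 at Rps19bp1, 11 at Rps15 and 7 at Rps27. BRG1 was in NanogBiD only at 3 members, among them Rps24 with 17 tags and Rps14 with 15 (3.49%, against 4.35% of all promoters). It was in NanogWT only at Rpl17 with 24, Rps27 with 12 and Rps4x with 12 (3.49%, against 3.84%). From the principal start, Rps24 and Rps14 had BRG1 in both arms, and Rps27 and Rps4x in NanogWT only. H3K27ac was in NanogBiD only at Rpl17 with 38 tags and Rps24 with 19 (2.33%, against 4.1%), both present in both arms from the principal start. It was in NanogWT only at 3 members, among them Rpl35 with 36 and Rpl36 with 32 (3.49%, against 1.54%). At Rpl35 an H3K27ac peak of NanogBiD overlapped the window with its summit outside, and at Rpl36 none did. Rps27, with a YY1 motif, had FLAG and BRG1 summits in NanogWT only, H3K27ac at 31 and 28 tags and H3K4me1 at 13 tags in NanogBiD.

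Members outside the usual pattern were few. No summit of any target was found in either arm at Rpl10l and Rpl39l, both testis paralogues, at Rpl3l, the striated muscle paralogue of Rpl3, and at Rps27rt. They were 4.65% of the members, and 33.0% of all promoters were in that state. The genes they resemble carried H3K27ac in both arms. At Rpl3, however, the window held FLAG in NanogBiD only, and at Rps27 it held FLAG and BRG1 in NanogWT only. Rpl10 had H3K27ac summits of 27 and 25 tags and FLAG summits of 27 and 25, and Rpl39 had 26 and 28 and 20 and 18. The paralogues Rpl22l1 (H3K27ac 41 and 32), Rps27l (40 and 42), Rpl36al (35 and 28) and Rpl7l1 (27 and 28) carried the mark in both arms. Rps19bp1 had the lowest H3K27ac summits of the members in both arms, 14 and 16. Among core genes, Rpl6 had H3K27ac at 30 and 26 tags with no FLAG, BRG1 or H3K4me1 summit in either arm, and Rpl36 had no summit but H3K27ac in NanogWT (at both genes a NanogWT H3K4me1 peak reached into the window). Fau and Rack1, genes of ribosomal components that the naming rule leaves out, had no H3K4me1 summit in either arm. Fau, a ubiquitin-like fusion of a small subunit protein, had H3K27ac at 35 and 26 tags and FLAG at 13 and 15. Rack1, a scaffold on the small subunit, had H3K27ac at 32 and 37 and FLAG at 17 and 15.

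Several facts of the series bear on these values. The lists held between 30859 and 74782 peaks, the number of sequenced tags is unknown, and no control library or cells without the FLAG tag were analysed here. Of 20 members the window also held the start of another protein-coding gene, such as Polr3a at Rps24 and Rab13 at Rps27, so a summit there cannot be assigned to 1 of the genes. H3K27ac summits were at the promoters of 6 of 10 fibroblast markers in NanogWT and 7 in NanogBiD, and at 0 and 2 of 10 pluripotency markers (Dppa3 and Tdgf1 in NanogBiD). Of the blood, endothelial and epithelial markers, 4 each, 0, 1 and 0 had it in NanogWT and 1, 3 and 1 in NanogBiD. The mixture of cells may differ between the arms, and its part in the comparison was not tested.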

How the data were processed

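CUT&Tag libraries of MEFs at day 5 were analysed from the lists that the authors deposited. Per the study's methods and the submitters' processing notes, the authors trimmed reads with Trim Galore 0.6.4, mapped them to mm10 with Bowtie2 2.4.5, filtered them with SAMtools 1.16.1, merged replicates (how many per CUT&Tag list is not given in the sources used here, beyond a general minimum for the study's experiments) and called peaks with MACS 1.4.2. The deposited peak lists hold a score, the caller's significance value, which was at least 50.0 in each list. The deposited summit lists hold a signal, the tag pileup at the summit. Neither is scaled to depth, which is unknown.

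Peaks and summits were joined by name and assigned to windows of 2 kb either side of the 5′ end of GENCODE M21 protein-coding genes with Python 3.11.15, pandas 2.3.3, numpy 2.4.6, scipy 1.17.1 and pysam 0.24.0. The window search was tested on simulated summits. Ratios are log2 of NanogBiD over NanogWT of the highest summits, with exact binomial intervals for single genes, and shares have Wilson intervals. Named genes were, per target, the 3 largest and 3 smallest ratios, the members with a summit in a single arm (all of them if 5 or fewer, otherwise the 3 highest), the 3 highest summits per library, members with no summit, Fau and Rack1, and fixed examples by role. Some genes are counted but not reported here by name. Rps4l, one of these examples, is not a protein-coding gene of the annotation. Other members of a class were named after their values were seen. Members and lists were chosen with earlier results of these data known. Sequences were read from GRCm38.p6, in which every summit on a named chromosome fell within its chromosome. Alternatives were other starts, windows, score and height minimums, list sizes, measures and member sets.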

Additional observations from a re-analysis of the deposited data

How the results depend on the processing

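No paired analysis was possible because every arm and target came as a single merged list. Under the alternatives, 208 values moved little and 60 moved by more than their tolerance (1.5 times for a count); the latter follow, and the cause was not tested. The median log2 ratios of H3K27ac and H3K4me1, both near 0, changed sign. Peak overlap and the principal start were added after the data were seen. With the 20000 highest-scoring peaks, FLAG summits were at 36 and 36 members (NanogWT and NanogBiD; all promoters 26.8% and 23.3%), 7 in each arm only (all promoters 6.18% NanogWT, 2.72% NanogBiD), the median log2 ratio was 0.00, 5 were at least 1.5-fold higher in NanogBiD and 0 lower (6.5% and 1.77%). BRG1 summits in NanogBiD were at 45 (31.7%), with 26 and 1 in a single arm (NanogWT, NanogBiD; all promoters 11.7% and 1.13%) and 1 higher by 1.5-fold (4.29%). H3K27ac was at 0 in NanogWT only (2.13%). H3K4me1 was at 8 and 18 (27.7% and 33.9%), 0 in NanogWT only (4.15%), with a ratio of 0.0789 and 0 higher by 1.5-fold (0.444%). With summits of at least 15 tags, FLAG was at 45 in NanogWT (all promoters 32.4%) and 24 in NanogBiD only (6.69%), the ratio was 0.0827, and 6 were higher and 0 lower (6.11% and 1.92%). BRG1 was at 7 and 10 in a single arm (5.39% and 4.35%) with 1 higher (2.25%), and H3K4me1 at 8 in NanogBiD only (5.61%). With a score of at least 100, FLAG was at 10 in NanogBiD only (4.71%), 9 higher and 0 lower (8.49% and 2.75%). BRG1 was at 7 and 8 in a single arm (3.79% and 4.78%) with 1 higher (3.44%), H3K27ac at 1 and 1 (1.44% and 3.64%), and H3K4me1 at 17 and 18 (all promoters 36.2% and 34.1%), 5 in NanogBiD only (5.79%) and 0 higher (0.788%). Peak scores in place of heights gave ratios of 0.0584 for FLAG (4 lower by 1.5-fold; all promoters 11.1%), -0.0822 for H3K27ac (1 higher, 1 lower; 8.37% and 3.66%) and 0.10 for H3K4me1 (4 higher, 1 lower; 9.03% and 15.7%), and 10 higher and 8 lower for BRG1 (10.9% and 7.85%). After subtraction of the median of all promoters, FLAG had 9 higher (5.76%) and the H3K27ac ratio was -0.0441. Summed heights gave 5 higher for BRG1 (6.08%) and 1 lower for H3K4me1 (11.8%). With every transcript start, 0 members had FLAG or H3K27ac in NanogBiD only (5.22% and 4.23%), and with the principal start 0 and 0 (4.84% and 4.05%), with 1 for BRG1 (4.33%). Any overlapping peak gave 1 and 1 for H3K27ac in a single arm (1.42% and 4.14%), and windows of 1 kb gave 3 for H3K4me1 in NanogWT only (5.3%). Heights of 7 to 63 tags limit what a single gene can show.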
